A study of Caenorhabditis elegans with 18 samples.

Results

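The *nlp-29* and *cnc-2* gene clusters encode the small secreted antimicrobial peptides of the *C. elegans* epidermis, the skin that lies under the cuticle. The 9 genes described here are *nlp-27*, *nlp-28*, *nlp-29*, *nlp-30*, *nlp-31* and *nlp-34* of the first cluster and *cnc-1*, *cnc-2* and *cnc-4* of the second. They were found by their WormBase identifiers among the 24998 genes of the normalized count table. They were chosen by name, with earlier results of these data known.

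The *nlp* peptides (neuropeptide-like proteins rich in glycine and tyrosine) and the *cnc* peptides (caenacins) are made when a fungus penetrates the cuticle, and *nlp-29* is also induced by wounding. In the epidermis, *nlp-29* is switched on through the p38 MAP kinase cascade of TIR-1, NSY-1, SEK-1 and PMK-1, with the STAT-like factor STA-2 and the GATA factor ELT-3 as regulators of transcription. *cnc-2* depends instead on DBL-1, a TGF-β ligand released by neurons, and on the Smad protein SMA-3 in the epidermis. LIN-29, a zinc-finger transcription factor, acts in the hypodermis to drive the switch from larval to adult skin. RICT-1 is the Rictor subunit of the kinase complex mTORC2, and FBXL-5 is an F-box protein, the substrate-binding part of an SCF ubiquitin ligase.

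Polyadenylated RNA was sequenced from whole hermaphrodites on day 1 of adulthood, after growth for 72 h at 20 °C from synchronized L1 larvae on *E. coli* OP50. The 6 genotypes, with 3 independent biological replicates each, were wild-type (strain N2), the single mutants *rict-1(mg360)*, *lin-29(n333)* and *fbxl-5(rhd43)*, the double mutant *rict-1(mg360); fbxl-5(rhd43)*, and a second double mutant that joins *lin-29(n333)* with *fbxl-5(rhd43)*. The alleles are written below by gene name alone. The mutations are carried in every tissue, *rhd43* is a nonsense allele and *mg360* a missense allele that may leave some function, and 1 strain stands for each genotype. In RNA from whole animals, fewer epidermal cells and less RNA per epidermal cell cannot be told apart.

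Each library held 13434120 to 29733059 reads on genes. Ribosomal RNA took 30% of these reads in replicate 3 of *fbxl-5*, 4.49% in replicate 3 of *rict-1* and 2.79% in replicate 2 of *lin-29; fbxl-5*, and 0.0729% to 1.55% in the other 15. The mutated genes were not reduced at the RNA level in their own mutants. *lin-29* was at 135 to 206 normalized counts in *lin-29* and 96 to 106 in wild-type, *fbxl-5* at 138 to 141 in *fbxl-5* and 86.5 to 110 in wild-type, and *rict-1* at 2120 to 3025 in *rict-1* and 2767 to 3249 in wild-type. As none of these alleles is labelled as a deletion, RNA levels do not check the genotype labels. All 11 epidermal marker genes were detected in every genotype.

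All 9 genes lie on chromosome V, at the positions of the WBcel235 annotation, and each is a protein-coding gene of 2 exons that overlaps no other annotated gene. The *nlp-29* cluster spans 10.95 kb. From its left end it holds *nlp-34* (WBGene00015046; 3978825 to 3979134, minus strand), *nlp-31* (WBGene00003769; 3980055 to 3980622, plus strand), *nlp-30* (WBGene00003768; 3981980 to 3982741, plus strand), *nlp-29* (WBGene00003767; 3984425 to 3984847, plus strand), *nlp-28* (WBGene00003766; 3987900 to 3988316, plus strand) and *nlp-27* (WBGene00003765; 3989378 to 3989770, plus strand). The *cnc-2* cluster spans 6.14 kb and holds *cnc-1* (WBGene00000555; 1444044 to 1444280, minus strand), *cnc-4* (WBGene00000558; 1447195 to 1447707, plus strand) and *cnc-2* (WBGene00000556; 1449665 to 1450183, minus strand). *cnc-3*, which is not among the members, starts between *cnc-4* and *cnc-2*. The peptides of a cluster resemble each other in sequence. How 50-base reads that match several of them were assigned is not given in the sources used here, so a split of reads between close relatives such as *nlp-29* and *nlp-31* is uncertain.

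In wild-type adults the 9 genes covered the whole range from abundant to undetected. Levels of different genes are compared per kilobase of exon. *nlp-27* was the highest at 3401 ± 513 normalized counts per kilobase (SD, n = 3), followed by *nlp-28* at 2437 ± 355. *nlp-29* at 1045 ± 230 and *nlp-31* at 757 ± 161 came next, and their replicates overlapped. Below them stood *cnc-4* at 321 ± 57 and *cnc-2* at 173 ± 45.3, which overlapped neither each other nor their neighbours in this order. *nlp-30* at 40.8 ± 18.4 and *nlp-34* at 39.2 ± 4.56 overlapped and were low, and *cnc-1* had no read in any wild-type library. A count of 0 allows up to 3 reads a library, a limit that covers counting error only.

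The order was different in *lin-29*. There *nlp-29* led at 6818 ± 1619 per kilobase, *nlp-31* followed at 5096 ± 1579, *cnc-4* at 4507 ± 1685 and *nlp-34* at 4366 ± 681, each overlapping the next. *nlp-27*, the leading gene of the wild-type, came next at 3936 ± 637. *nlp-28*, the second in wild-type, stood eighth at 1270 ± 504, below *nlp-30* at 2382 ± 779 and *cnc-2* at 1570 ± 635. The sum over the 9 genes came to 2406, 2947 and 3175 normalized counts for wild-type and to 13419, 13501 and 8335 for *lin-29*. It was 1646, 1765 and 1907 in *fbxl-5*, 6913, 13092 and 8121 in *lin-29; fbxl-5*, 3095, 2832 and 3084 in *rict-1*, and 2187, 1834 and 2151 in *rict-1; fbxl-5*. These sums were not tested.

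**Figure D1:**
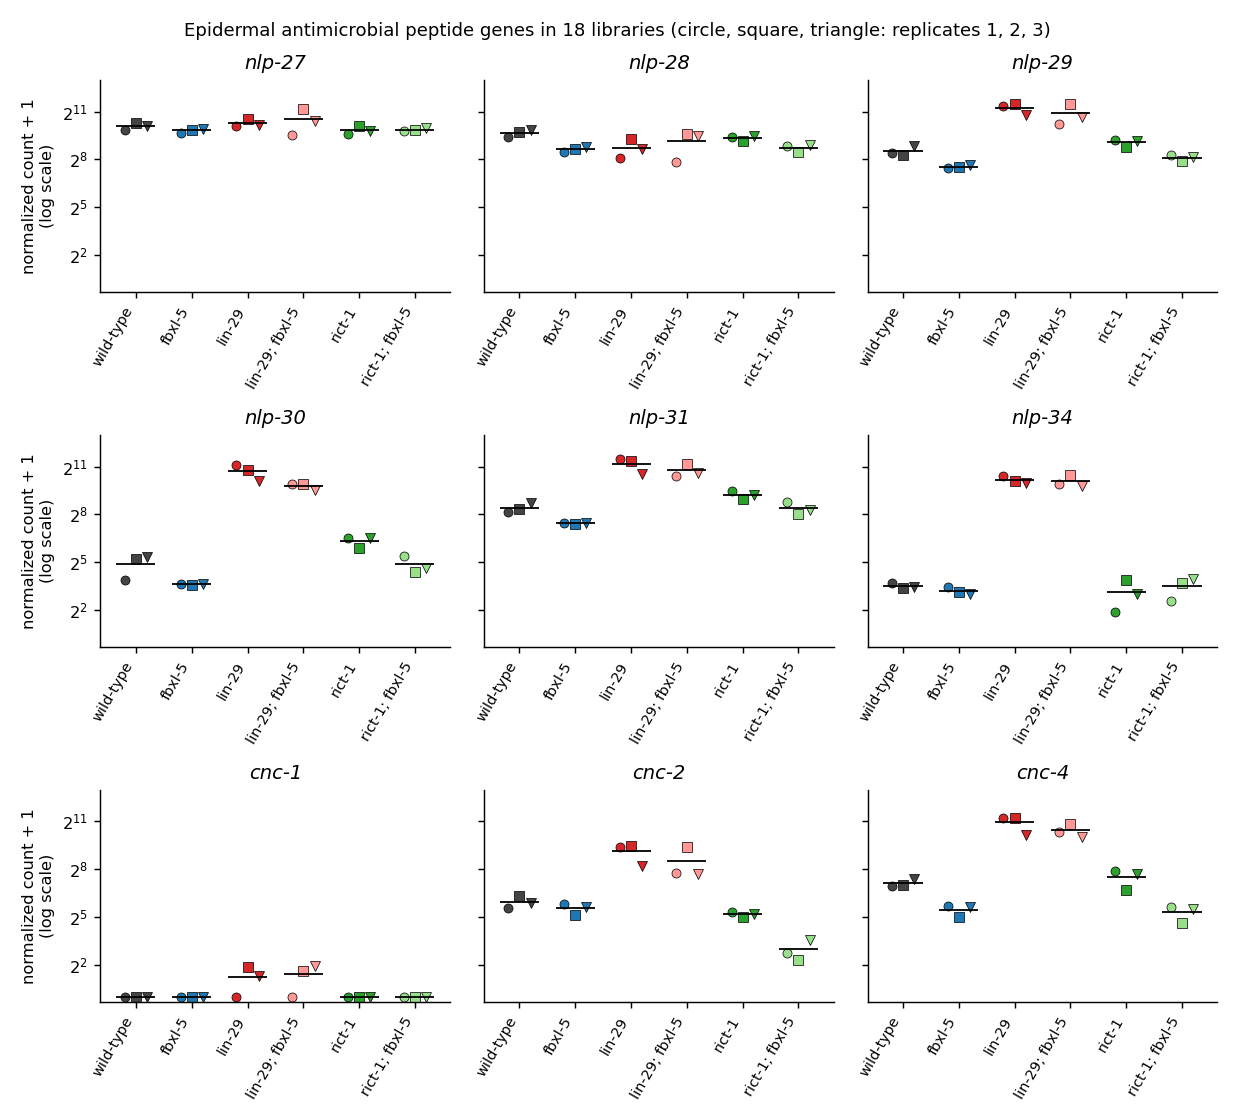
Normalized count plus 1 of each of the 9 genes in each of the 18 libraries, on a log2 axis, by genotype. Symbols are replicates and the bar is the mean of 3. For *nlp-29*, *nlp-30*, *nlp-31*, *nlp-34*, *cnc-2* and *cnc-4* all 6 libraries that carry the *lin-29* mutation lie above all 12 others, while *nlp-27* stays between 730 and 2337 and *cnc-1* is at or near 0 throughout.

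Of the 9 genes, 8 had a mean of at least 10 normalized counts over the 18 libraries and were tested. *cnc-1* did not. *nlp-34* averaged 10.4 in wild-type, 8.07 in *fbxl-5*, 7.84 in *rict-1* and 10.5 in *rict-1; fbxl-5*. It passed only through the libraries with the *lin-29* mutation, at 1153 in *lin-29* and 1095 in *lin-29; fbxl-5*, where it was then called higher. With no filter on low values *nlp-34* was called higher in *lin-29* as well. Loss of *lin-29* raised 6 of the 8 and lowered none at an adjusted p below 0.01 (limma across all 13472 genes tested, of which 22.6% were called higher and 18.4% lower). The median log2 fold change of the 8 was 2.90, beside -0.01 over all genes tested. The 6 were *nlp-29*, *nlp-30*, *nlp-31*, *nlp-34*, *cnc-2* and *cnc-4*. In all 6 the 3 *lin-29* libraries lay above the 3 wild-type libraries, as they did for 30.1% of all genes tested. Of the other 2, *nlp-27* overlapped wild-type and *nlp-28* had all 3 *lin-29* libraries below wild-type, like 31% of all genes, and no call.

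The largest fold changes were those of *nlp-34* and *nlp-30*, the genes with the lowest wild-type levels apart from *cnc-1*. *nlp-34*, which encodes a glycine-rich peptide at the left edge of its cluster, was at 11.7, 9.37 and 9.99 normalized counts in wild-type replicates 1 to 3 and at 1355, 1090 and 1013 in *lin-29*. Its log2 fold change was 6.66 (SE 0.42, adjusted p = 2.82e-09), a 101-fold increase on the log2(normalized count + 1) scale used for every fold change here, which understates the change of genes this low. *nlp-30* went from 14, 35.1 and 38.2 to 2212, 1780 and 1109, a log2 fold change of 5.88 (SE 0.34, adjusted p = 1.47e-09) or 59-fold. Both genes were thus at 38.2 or fewer normalized counts in each wild-type library and at 1013 or more normalized counts in each *lin-29* library.

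*nlp-29* itself, widely used as a reporter of the epidermal response to fungi, was at 332, 314 and 463 normalized counts in wild-type and 2575, 2889 and 1777 in *lin-29*. That is a log2 fold change of 2.70 (SE 0.25, adjusted p = 4.58e-07) and 6.48-fold. *nlp-31* of the same cluster, whose peptide is active against fungi *in vitro*, moved by nearly the same amount, from 280, 323 and 422 to 2800, 2611 and 1484, with a log2 fold change of 2.71 (SE 0.25, adjusted p = 3.14e-07). The *nlp-29* and *nlp-31* log2 fold changes differed by less than either standard error.

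The 2 expressed members of the *cnc-2* cluster rose as well. *cnc-2*, the caenacin that depends on DBL-1, was at 46.8, 78.5 and 58.1 normalized counts in wild-type and 674, 697 and 296 in *lin-29*, a log2 fold change of 3.09 (SE 0.44, adjusted p = 2.06e-05). *cnc-4*, in the same cluster, went from 124, 126 and 168 to 2419, 2348 and 1115, a log2 fold change of 3.73 (SE 0.36, adjusted p = 6.02e-07) or 13.3-fold. *cnc-1* had 0, 3 and 1 reads in the *lin-29* libraries, 0, 2 and 2 in *lin-29; fbxl-5* and 0 in the other 12, too few for a fold change. Replicate 3 of *lin-29* was the lowest of its group for all 6 genes that rose. It was also the shallowest of the 3, with 13932860 reads, though the values are already divided by a size factor per library. Its summed marker levels differed as well. They were lower for 11 epidermal (10791 beside 21358 and 15411), 5 muscle (57348 beside 101519 and 92489) and 5 pharynx markers (1426 beside 5684 and 7157). They were higher for 5 sperm (424 beside 207 and 244) and 6 intestinal markers (22000 beside 18814 and 17647). The part of depth or of these markers was not tested.

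*nlp-27* and *nlp-28*, at the right end of the *nlp-29* cluster and the most abundant members in wild-type, were not called higher. *nlp-27* was at 906, 1230 and 1088 normalized counts in wild-type and 1109, 1475 and 1146 in *lin-29*, overlapping groups with a log2 fold change of 0.21 (SE 0.29, adjusted p = 0.549) and a 95% interval of -0.40 to 0.82. *nlp-28* was at 691, 830 and 928 in wild-type and 275, 608 and 394 in *lin-29*. Its log2 fold change of -1.0 (SE 0.36, adjusted p = 0.0277) did not pass the threshold of 0.01.

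**Figure D2:**
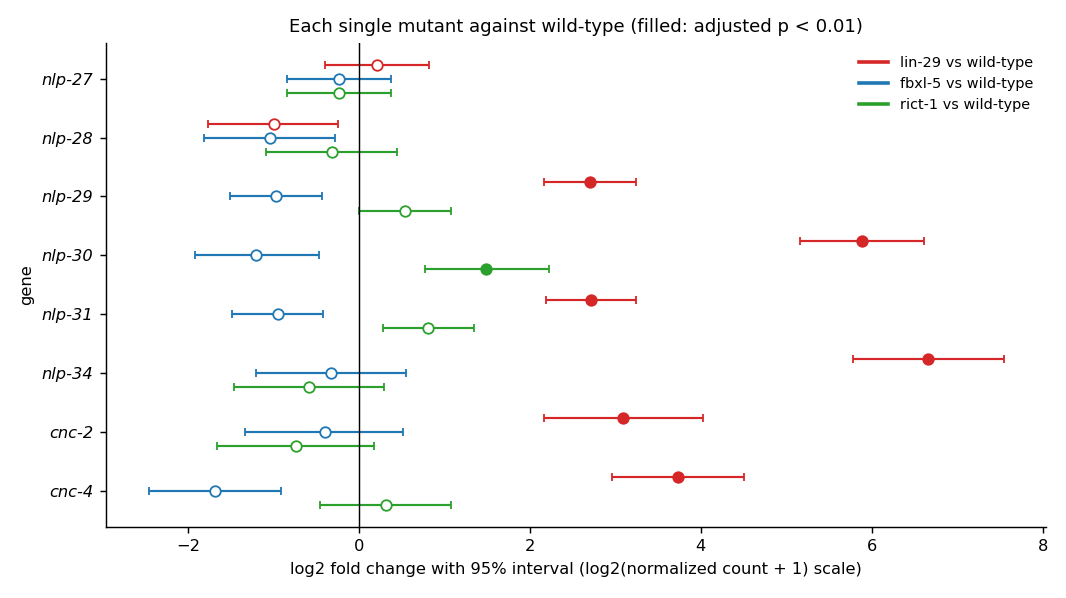
Log2 fold change with its 95% interval (limma) of the 8 genes tested, for *lin-29*, *fbxl-5* and *rict-1* against the same 3 wild-type libraries. Filled points have an adjusted p below 0.01. The 6 filled *lin-29* points lie between 2.70 and 6.66, every *fbxl-5* point lies below 0 and none is filled, and *nlp-30* is the only filled *rict-1* point.

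The position of the genes within the clusters sets these values side by side. Going from *nlp-34* to *nlp-27*, the log2 fold changes in *lin-29* were 6.66, 2.71, 5.88, 2.70, -1.0 and 0.21. Measured from the start of *nlp-29*, that of *nlp-28*, which was not called, lies at 3.48 kb, and that of *nlp-31*, which rose, at -4.37 kb on the other side. Of the 14 annotated genes within 10 kb of a member, 5 were tested. *cyp-34A9*, a cytochrome P450 gene whose start lies at -13.88 kb from that of *nlp-29*, rose from 70.2, 93.7 and 91.8 normalized counts in wild-type to 475, 498 and 587 in *lin-29*, with a log2 fold change of 2.60 (SE 0.17, adjusted p = 5.46e-09). It was also called in both other single mutants, lower in *fbxl-5* at -0.93 (adjusted p = 0.00368) and higher in *rict-1* at 1.52 (adjusted p = 6.65e-06). The other 2 neighbours that rose were *cyp-34A10* at 2.50 and the caenacin gene *cnc-11* at 4.39, both named after their values were seen. Both passed the filter on mean level only through the libraries with the *lin-29* mutation. *cnc-3*, another caenacin gene, starts between *cnc-4* and *cnc-2*, at -2.18 kb from the latter. It was at 112, 104 and 108 normalized counts in wild-type and 154, 131 and 84.3 in *lin-29*, a log2 fold change of 0.14 (adjusted p = 0.708), and is also named after its values were seen.

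**Figure D3:**
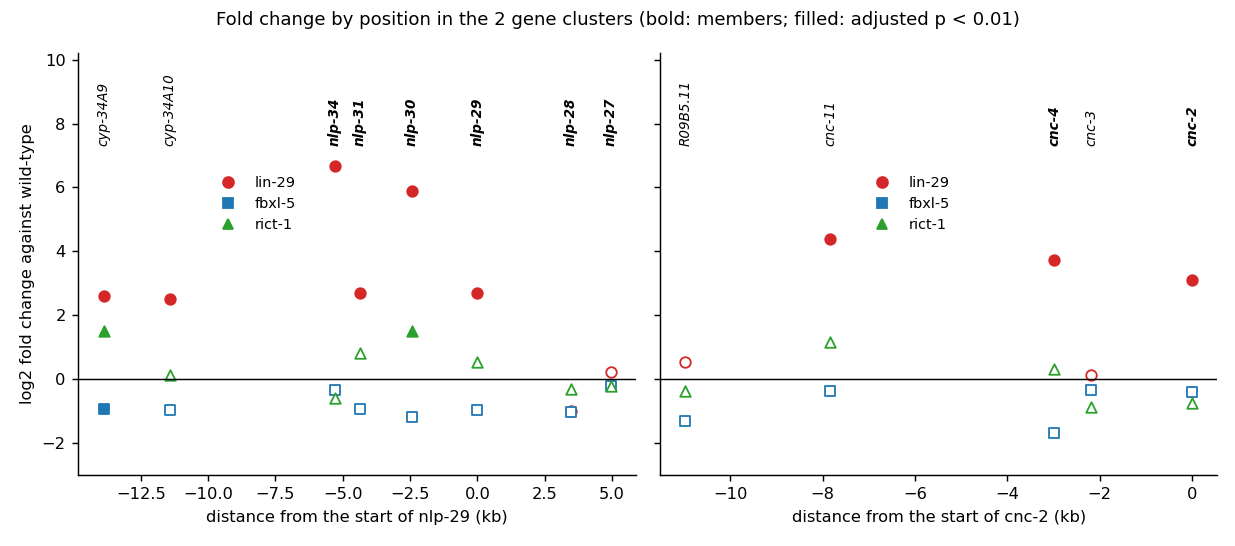
Log2 fold change against wild-type of members (bold) and tested neighbours by the distance of their starts, in kb, from the start of *nlp-29* (left) or *cnc-2* (right). Filled symbols have an adjusted p below 0.01. In *lin-29* the genes on the left side of the *nlp-29* cluster lie at 2.50 to 6.66 and the 2 at its right end at -1.0 and 0.21, and *cnc-3* at 0.14 lies between *cnc-4* at 3.73 and *cnc-2* at 3.09.

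The same 6 genes were higher in *lin-29* than in the other single mutants. Against *fbxl-5*, 6 of 8 were called higher (background 23.7%), with log2 differences from 3.50 for *cnc-2* to 7.08 for *nlp-30*. Against *rict-1*, 6 of 8 were called higher (background 17.0%), from 1.90 for *nlp-31* to 7.25 for *nlp-34*. *nlp-27* and *nlp-28* were called in neither. The log2 difference of *nlp-28* between *lin-29* and *fbxl-5* was 0.04 (SE 0.36, adjusted p = 0.929).

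Marker genes of the skin and of several other tissues moved in *lin-29* alongside these peptides. Among the 11 epidermal markers, 5 were higher and 1 lower. The higher ones included the cuticle collagen genes *rol-6* (4.90 ± 2.73 normalized counts in wild-type and 2452 ± 1171 in *lin-29*; SD, n = 3), *dpy-7* (16.5 ± 8.71 and 642 ± 289) and *sqt-3* (231 ± 117 and 6991 ± 3202). *col-19*, the collagen gene of the adult cuticle, fell from 15665 ± 2824 to 613 ± 263, a log2 fold change of -4.75 (SE 0.82, adjusted p = 0.00034). Of 5 epidermal transcription factor genes, *nhr-25*, a nuclear receptor gene, was higher, at 71.7 normalized counts in wild-type and 189 in *lin-29* (log2 fold change 1.31, SE 0.27, adjusted p = 0.000695), and *elt-1*, *lin-26*, *elt-3* and *nhr-23* were not called. The remaining gene called higher was *dpy-10*, and both it and these 5 factors are named after their values were seen. The summed level of the 11 epidermal markers was 17598 to 22507 in wild-type and 10791 to 21358 in *lin-29*. Most of the wild-type sum was *col-19*. Without it, a choice made after seeing the data, the other 10 summed to 4353 to 5061 in wild-type and 10224 to 20981 in *lin-29*. The sum of 5 muscle markers, of which 4 were called higher, was 33847 to 49093 and 57348 to 101519. That of 5 sperm markers, 4 of them higher, was 114 to 122 and 207 to 424, and that of 6 intestinal markers, 3 of them higher, 13877 to 16023 and 17647 to 22000. The sum of 5 germline markers, 1 of them lower, was 89314 to 110158 in wild-type and 72787 to 80475 in *lin-29*. For 5 neuronal markers, 1 higher and 1 lower, it was 3271 to 3562 and 3759 to 3843, and for 5 pharynx markers, 1 higher, the sums overlapped. No marker was at 0 in any genotype. The part of these shifts in the rise of the peptide genes was not tested.

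In *fbxl-5* none of the 8 genes tested passed the threshold (limma, 0 of 8; background 2.56% in either direction and 1.97% lower). All 8 log2 fold changes were below 0, with a median of -0.96, beside -0.02 over all genes tested, of which 52.8% were below 0. At an unadjusted p below 0.05, 5 of 8 were lower, beside 13.5% of all genes. In the same 5, *nlp-28*, *nlp-29*, *nlp-30*, *nlp-31* and *cnc-4*, all 3 *fbxl-5* libraries lay below all 3 wild-type libraries, as they did for 21.6% of all genes. edgeR called 0 of 8 and DESeq2 called 4 lower, *nlp-29*, *nlp-30*, *nlp-31* and *cnc-4*. With the 6 libraries of these genotypes fitted alone, limma called 4 lower, *nlp-28*, *nlp-29*, *nlp-31* and *cnc-4*. The shares of all genes called by edgeR, DESeq2 and this smaller fit are not given, so these counts have no background beside them.

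*cnc-4* had the largest difference, at 124, 126 and 168 normalized counts in wild-type and 49.8, 30.8 and 49.1 in *fbxl-5*. Its log2 fold change of -1.68 (SE 0.36, adjusted p = 0.0106) corresponds to a level 3.21-fold lower and sat just outside the threshold. *nlp-29* was at 178, 182 and 198 in *fbxl-5*, with a log2 fold change of -0.97 (SE 0.25, adjusted p = 0.0288). *nlp-31* was at 174, 170 and 178, with -0.95 (SE 0.25, adjusted p = 0.0281), again close to *nlp-29*. In both genes the *fbxl-5* replicates lay close together and below every wild-type library. *nlp-28*, which was not raised by loss of *lin-29*, was at 352, 393 and 438, with -1.04 (SE 0.36, adjusted p = 0.0859). *nlp-30*, low in both groups, was at 11.2, 10.6 and 11.4, with -1.20 (SE 0.34, adjusted p = 0.04).

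The groups overlapped for the remaining 3. *nlp-27* was at 818, 937 and 977 in *fbxl-5* (log2 fold change -0.23), *nlp-34* at 9.64, 7.71 and 6.86 (-0.33) and *cnc-2* at 54.6, 33.7 and 49.1 (-0.40). The sum of the 11 epidermal markers was 15407 to 16335 in *fbxl-5* against 17598 to 22507 in wild-type, while without *col-19* the other 10 lay the other way, at 5928 to 5993 against 4353 to 5061. Of the 11, 0 were called by limma or edgeR, 2 were higher by DESeq2, and 3 were higher and none lower at an unadjusted p below 0.05. The sums also lay above wild-type for 6 intestinal markers, at 17776 to 19116 against 13877 to 16023, and for 5 sperm markers, at 144 to 203 against 114 to 122. The summed level of 5 pharynx markers was 634 to 997 against 1934 to 2743, with 0 of 5 called by limma or edgeR, 1 lower by DESeq2, and 3 lower and 1 higher at an unadjusted p below 0.05. Without replicate 3 of *fbxl-5*, in which 30% of the reads were ribosomal RNA, the count was also 0. Without wild-type replicate 1 it was 1, *nlp-30*. The part of these marker levels in the values above was not tested.

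Among the 8 genes, 1 was called higher in *rict-1*, a share near that of all genes (background 10.7% higher and 16.4% in either direction). This gene was *nlp-30*. It was at 89.2, 57.6 and 88.7 normalized counts in *rict-1*, above the 14, 35.1 and 38.2 of the wild-type libraries, and the log2 fold change was 1.49 (SE 0.34, adjusted p = 0.00376) or 2.81-fold. This call was lost without wild-type replicate 1, the lowest of its group, without *rict-1* replicate 1 or 3, and without the 3 libraries highest in ribosomal RNA, a choice made after seeing the data. *nlp-31* was at 700, 493 and 597, all above wild-type (as were 24.4% of all genes), with a log2 fold change of 0.81 (SE 0.25, adjusted p = 0.0223). *nlp-29* was at 586, 444 and 579, overlapping wild-type by 1 library, with 0.54 (SE 0.25, adjusted p = 0.119). Both missed the threshold.

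The other 5 did not share this direction as a group. *cnc-4* was at 233, 103 and 207 (log2 fold change 0.31) and *nlp-34* at 2.62, 14 and 6.89 (-0.58), *nlp-27* at 778, 1108 and 865 (-0.23) and *nlp-28* at 666, 581 and 704 (-0.32), all overlapping wild-type. *cnc-2* was at 39.3, 31.1 and 36.2, below each wild-type library (as were 22.6% of all genes), with -0.74 (SE 0.44, adjusted p = 0.215). The median over the 8 was 0.04. Of the 11 epidermal markers, 3 were also higher in *rict-1*. They were *nhr-25*, at 238 ± 37.2 against 71.7 ± 14.1 (log2 fold change 1.72, adjusted p = 0.000172), and the collagen genes *dpy-7* and *sqt-3*, at 75.7 ± 45.9 against 16.5 ± 8.71 and 1103 ± 534 against 231 ± 117 normalized counts (SD, n = 3). The summed level of 6 intestinal markers, of which 5 were called higher, was 23027 to 25065 in *rict-1* and 13877 to 16023 in wild-type. That of 5 pharynx markers was 630 to 952 against 1934 to 2743, with the pharyngeal myosin genes *myo-1* at -2.76 and *myo-2* at -2.33 called lower and *pha-4*, a regulator of pharynx development, called higher. The epidermal sum overlapped wild-type, but without *col-19* it was 5505 to 6341 against 4353 to 5061. The part of these shifts in the *nlp-30* value was not tested. The *lin-29*, *fbxl-5* and *rict-1* comparisons share the 3 wild-type libraries, so a chance deviation in those libraries enters all of them.

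The *fbxl-5* mutation was also measured in *lin-29* and in *rict-1* animals, and these comparisons have no library in common with each other or with the one in wild-type. In *rict-1* animals it lowered 2 of the 8 genes, *cnc-2* and *cnc-4* (background 1.06% lower and 1.39% in either direction). *cnc-2* was at 39.3, 31.1 and 36.2 normalized counts in *rict-1* and 5.78, 4.03 and 11 in *rict-1; fbxl-5*, the latter from only 7, 5 and 13 reads. Its log2 fold change was -2.29 (SE 0.44, adjusted p = 0.00624), a level 4.9-fold lower. *cnc-4* went from 233, 103 and 207 to 49.5, 23.4 and 44.7, with -2.17 (SE 0.36, adjusted p = 0.00268) and 4.48-fold. For both genes the groups did not overlap. The *cnc-2* call was lost with edgeR and with a pseudocount of 5, and that of *cnc-4* was kept. The lowest *rict-1* value of *cnc-4*, replicate 2, and the lowest of *rict-1; fbxl-5* had the same replicate number.

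Replicates of these 2 genotypes that carry the same number deviated together (correlations 0.646, 0.394 and 0.237). With the replicate number as a block, 1 gene remained lower, *cnc-4*, in the fit of all 18 libraries, and 6 were lower in the fit of these 6 libraries alone, *nlp-28*, *nlp-29*, *nlp-30*, *nlp-31*, *cnc-2* and *cnc-4*. The share of all genes called in either block fit is not given, so neither count has a background beside it. The same 6 had all 3 *rict-1; fbxl-5* libraries below all 3 *rict-1* libraries, as did 13.2% of all genes. *nlp-30* was at 89.2, 57.6 and 88.7 and 41.3, 20.2 and 23.6, with a log2 fold change of -1.48 (SE 0.34, adjusted p = 0.0232). *nlp-29* was at 586, 444 and 579 and 310, 233 and 281, with -0.96 (SE 0.25, adjusted p = 0.0518). Neither passed in the fit of all 18 libraries. *nlp-31* had -0.86 and *nlp-28* -0.61, while *nlp-27* at 0.04 and *nlp-34* at 0.49 overlapped. No gene was called without *rict-1* replicate 1 or 3, without *rict-1; fbxl-5* replicate 2 or without the 3 libraries highest in ribosomal RNA, and 1, *cnc-4*, without *rict-1* replicate 2 or *rict-1; fbxl-5* replicate 1. The summed epidermal markers were 16320 to 21469 in *rict-1* and 15162 to 16164 in *rict-1; fbxl-5*. Without *col-19* they overlapped, at 5505 to 6341 and 5321 to 6039, and the sperm markers were at 102 to 140 and 182 to 269. Their part in these values was not tested.

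In *lin-29* animals none of the 8 genes passed the threshold for the *fbxl-5* mutation (limma, 0 of 8; background 5.82% in either direction). At an unadjusted p below 0.05, 1 was lower, *nlp-30*, beside 14.8% of all genes. edgeR called 0 and DESeq2 called *nlp-30* lower. *nlp-30* was at 2212, 1780 and 1109 normalized counts in *lin-29* and 941, 935 and 725 in *lin-29; fbxl-5*, with no overlap (all 3 below all 3 in 11.1% of all genes) and a log2 fold change of -0.93 (SE 0.34, adjusted p = 0.097). For the other 7 tested the groups overlapped, with log2 fold changes from -0.75 for *cnc-2* to 0.32 for *nlp-28*. The 95% interval for *cnc-4* was -1.23 to 0.31, and for *nlp-29* -0.96 to 0.12. The summed level of 6 intestinal markers, 3 of them called lower, was 17647 to 22000 in *lin-29* and 10985 to 15353 in *lin-29; fbxl-5*. That of 5 neuronal markers, 0 of them called, was 3759 to 3843 and 4484 to 4806. The other marker sums overlapped. The part of these shifts in the values above was not tested.

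**Figure D4:**
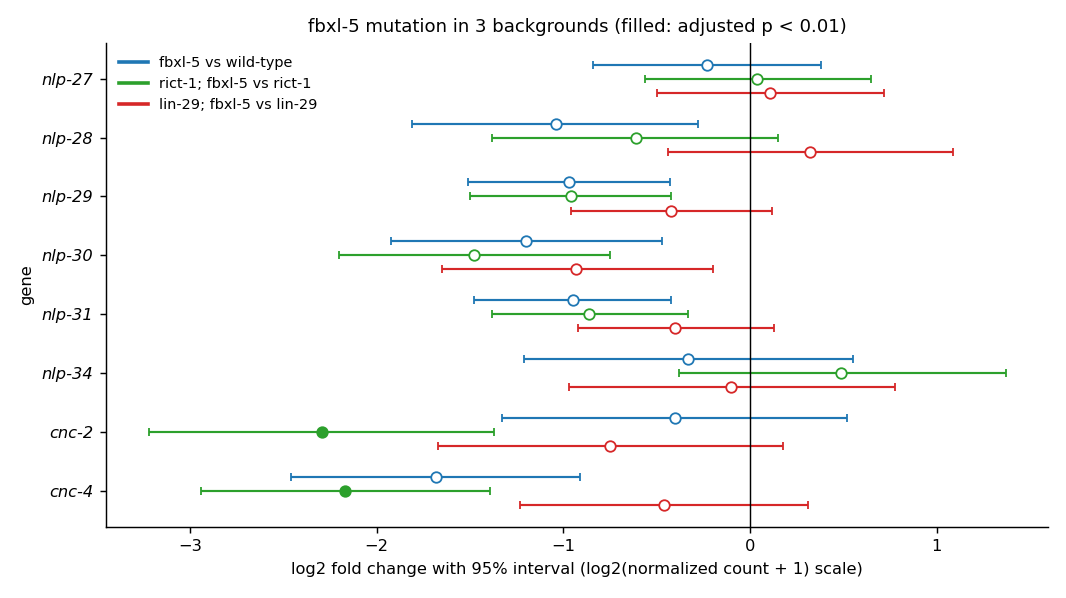
Log2 fold change with its 95% interval (limma) for the *fbxl-5* mutation in wild-type, *rict-1* and *lin-29* animals, for the 8 genes tested. Filled points have an adjusted p below 0.01. In *rict-1* animals *cnc-2* at -2.29 and *cnc-4* at -2.17 are filled, and in *lin-29* animals no point lies below -0.93.

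Whether the effect of *fbxl-5* differed between backgrounds was tested as an interaction. None of the 8 genes passed for *lin-29* (limma; background 2.4%) or for *rict-1* (background 0.854%), and edgeR and DESeq2 called 0 in each. At an unadjusted p below 0.05 there were 2 of 8 genes above 0 for *lin-29*, beside 9.78% of all genes, *nlp-28* with an interaction of 1.37 (SE 0.51, adjusted p = 0.125) and *cnc-4* with 1.22 (SE 0.51, adjusted p = 0.176), and 1 of 8 below 0 for *rict-1*, beside 8.02% of all genes, *cnc-2* with -1.89 (SE 0.62, adjusted p = 0.107). For *cnc-2* that is the log2 effect in *rict-1* animals, -2.29, against the effect in wild-type, -0.40.

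The double mutants were also compared with wild-type. In *lin-29; fbxl-5* the same 6 genes as in *lin-29* were higher (background 19.5%), with log2 fold changes from 2.27 for *nlp-29* to 6.56 for *nlp-34*. *nlp-34* was at 961, 1445 and 880 normalized counts there, *cnc-4* at 1280, 1809 and 1051, *nlp-29* at 1201, 2850 and 1609, *nlp-31* at 1355, 2261 and 1554 and *cnc-2* at 214, 678 and 203. Replicate 2 was the highest of its group in each of these 5, and it is also 1 of the 3 libraries highest in ribosomal RNA. Without this replicate the count was still 6, and without replicate 1 it was 7, with *nlp-27* higher as well. *nlp-27* at 730, 2337 and 1380 and *nlp-28* at 232, 776 and 717 overlapped wild-type. The marker sums that did not overlap wild-type were those of muscle at 55439 to 67603, neurons at 4484 to 4806, sperm at 234 to 282 and the epidermis without *col-19* at 12328 to 17923, all above it. *col-19* itself was at 386, 1749 and 11397 normalized counts in *lin-29; fbxl-5*. It was at 377, 896 and 567 in *lin-29* and at 12596, 16244 and 18154 in wild-type. Replicate 3 of *lin-29; fbxl-5* thus lay near the wild-type libraries for this gene. The part of these marker levels in the peptide values was not tested.

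In *rict-1; fbxl-5* 2 genes were lower than in wild-type, *cnc-2* and *cnc-4* (background 3.56% lower). *cnc-2*, at 5.78, 4.03 and 11 normalized counts, was 8.19-fold lower, with a log2 fold change of -3.03 (SE 0.44, adjusted p = 0.000145), the lowest level of this gene in any genotype. *cnc-4*, at 49.5, 23.4 and 44.7, had -1.86 (SE 0.36, adjusted p = 0.00196). *cnc-2* was the 1 gene called without *rict-1; fbxl-5* replicate 2 or without wild-type replicate 3. *nlp-29* at 310, 233 and 281, *nlp-31* at 433, 259 and 309 and *nlp-30* at 41.3, 20.2 and 23.6 were not called, with log2 fold changes of -0.41, -0.05 and 0.02. *nlp-34* at 4.95, 12.1 and 14.3 and *nlp-27* at 887, 929 and 994 overlapped wild-type. *nlp-28* at 456, 353 and 473 lay below it (as did 24.1% of all genes), with -0.93 (SE 0.36, adjusted p = 0.0731). It was called lower where only these 6 libraries were fitted. *cnc-2* and *cnc-4* thus had the opposite call here from that in *lin-29*. Beside this, the sum of the epidermal markers was 15162 to 16164 against 17598 to 22507 in wild-type (without *col-19*, 5321 to 6039 against 4353 to 5061), that of the pharynx 686 to 1135 against 1934 to 2743, that of the intestine 23981 to 25400 against 13877 to 16023 and that of sperm 182 to 269 against 114 to 122. Their part in the *cnc-2* and *cnc-4* values was not tested.

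How closely the genes varied together across libraries differed between pairs. Given as a description over the 12 libraries without the *lin-29* mutation, Pearson's r of log2(normalized count + 1) was 0.96 between *nlp-29* and *nlp-31*, 0.92 between *nlp-29* and *nlp-30*, 0.87 between *nlp-29* and *cnc-4* and 0.59 between *cnc-2* and *cnc-4*. It was 0.01 between *nlp-29* and *nlp-27* of the same cluster, and -0.29 between *nlp-29* and *nlp-34*, which was low in those libraries. *nlp-28* gave 0.89 with *cnc-4* over these 12 and -0.02 over the 6 libraries with the *lin-29* mutation. The libraries share genotypes and sequencing depth, and the values hold differences between genotypes. The 2 sets form separate clusters, so no pooled value is given.

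Among the 10303 genes with a mean of at least 50 normalized counts, members included, the 5 non-members most like *nlp-29* over the 18 libraries were *egal-1*, *mfb-1*, *tir-1*, *hacl-1* and *F26G1.2*. Their r over the 12 libraries without the *lin-29* mutation was 0.804 to 0.913 and over the 6 with it 0.868 to 0.960. *tir-1* encodes the adaptor at the head of the p38 cascade. The 5 most like *cnc-2* were *F55H12.4*, *far-3*, *asns-2*, *tyr-4* and *K11G9.5*, with r of 0.794 to 0.911 over the 12 and 0.602 to 0.953 over the 6. *far-3*, a gene for a fatty acid and retinol binding protein, was at 294 ± 67.7 normalized counts in wild-type and 5483 ± 563 in *lin-29* (SD, n = 3). Likeness of pattern is stated here as a description with no test. The ranking pools both sets of libraries, and the r within each set come from those same libraries.

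Related peptide genes gave the following counts. Of 13 further *nlp* and *cnc* genes of the same kinds, 9 were tested, and 5 were higher and none lower in *lin-29* (limma; 22.6% and 18.4% of all genes), with a median log2 fold change of 1.74. Some of the 5 averaged below 10 normalized counts over the libraries without the *lin-29* mutation and passed the filter only through the others. *nlp-33*, which encodes a glycine-rich peptide of the same kind, was at 656, 719 and 866 normalized counts in wild-type and 3978, 3717 and 2007 in *lin-29*, with a log2 fold change of 2.06 (SE 0.21, adjusted p = 7.89e-07). In *fbxl-5* limma called 1 of the 9, edgeR 1 and DESeq2 2, each lower (limma background 1.97%). The limma call was *nlp-33*, at 295, 319 and 385, all below wild-type, with -1.16 (SE 0.21, adjusted p = 0.00308). *nlp-25* went from 10.5, 10.5 and 9.09 to 469, 515 and 159 in *lin-29* and *cnc-10* from 53.8, 73.8 and 67.2 to 533, 379 and 260, with log2 fold changes of 4.94 and 2.52. In *rict-1* limma and edgeR called 0 of the 9 and DESeq2 1 lower, with 1 higher and 2 lower at an unadjusted p below 0.05.

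The *fip* and *fipr* genes encode further small secreted peptides, named for their induction by fungal infection. Of 33 in the table, 16 were tested, of which limma called 9 higher and 1 lower in *lin-29*, beside the same 22.6% and 18.4% of all genes. Several of the 9 averaged below 10 normalized counts over the libraries without the *lin-29* mutation. They passed the filter only through the libraries with it. In *fbxl-5* limma called 1 lower (background 1.97%), edgeR 0 and DESeq2 4 lower, with 7 lower and 1 higher at an unadjusted p below 0.05. In *rict-1* limma called 3 higher and 1 lower (background 10.7% and 5.78%), edgeR 1 higher, and DESeq2 3 higher and 3 lower. *fip-6* had the largest change, from 15.2, 16.4 and 8.18 normalized counts in wild-type to 1673, 1248 and 534 in *lin-29* (log2 fold change 6.24, SE 0.42, adjusted p = 7.3e-09). *fipr-22* was higher in *lin-29* at 123 ± 55.0 and in *rict-1* at 92.6 ± 39.6, and lower in *fbxl-5* at 2.26 ± 0.642, against 22.6 ± 12 in wild-type (SD, n = 3). Of 24 *abf* and *spp* genes tested, which encode antimicrobial peptides made largely in the intestine and pharynx, limma called 7 higher and 1 lower in *lin-29*, where 22.6% of all genes were higher and 18.4% lower. It called 11 higher and 2 lower in *rict-1*, where 10.7% were higher and 5.78% lower. In *fbxl-5* limma and edgeR called 0 of the 24 and DESeq2 1 lower, with 1 higher and 6 lower at an unadjusted p below 0.05.

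Upstream of *nlp-29*, all 21 listed genes of the p38 pathway were tested, and 10 were higher and none lower in *lin-29* (limma; 22.6% and 18.4% of all genes), with a median log2 fold change of 0.59. *cebp-1*, a bZIP transcription factor gene, was at 179, 217 and 259 normalized counts in wild-type and 1038, 1033 and 1258 in *lin-29* (log2 fold change 2.35, SE 0.17, adjusted p = 1.24e-08). *vhp-1*, which encodes a phosphatase that dampens MAP kinase signalling, went from 744, 801 and 894 to 2778, 2671 and 2896 (1.78, SE 0.12, adjusted p = 6.88e-09). *tir-1* went from 392, 524 and 548 to 1461, 1343 and 957 (1.35, SE 0.18, adjusted p = 1.38e-05), with no overlap in any of these 3 genes. The receptor gene *dcar-1* had 1.05 and the kinase gene *pmk-1* 0.48, while *nsy-1*, *sek-1*, *sta-2*, *snf-12* and *elt-3* were not called. In *lin-29; fbxl-5* against *lin-29*, limma called 1 of the 21, beside 5.82% of all genes in either direction. It was *pmk-1*, lower at -0.66 (SE 0.12, adjusted p = 0.00185). In *rict-1*, *vhp-1* at 0.94 and the phospholipase gene *plc-3* at 0.50 were higher. In *fbxl-5* limma and edgeR called 0 of the 21 and DESeq2 1 higher, with 1 higher and 6 lower at an unadjusted p below 0.05, beside 10.5% and 13.5% of all genes.

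Of the 12 genes of the DBL-1 pathway, 6 were higher and 2 lower in *lin-29* (limma; 22.6% and 18.4% of all genes), with a median log2 fold change of 0.55. The largest was *sma-10*, for a transmembrane protein that promotes DBL-1 signalling, at 255 ± 7.56 normalized counts in wild-type and 927 ± 21.9 in *lin-29* (SD, n = 3; log2 fold change 1.86, SE 0.11, adjusted p = 1.23e-09). The common Smad gene *sma-4* rose by 0.87 and the secreted modulator gene *crm-1* by 0.86. The lower ones were *lon-2*, for a glypican that restrains DBL-1, at -0.69, and *daf-4*, for the type II receptor, at -0.39. In *rict-1*, *sma-10* at 0.66 and *crm-1* at 0.60 were higher. *lon-1*, a target of the pathway that limits body length, was lower there at -1.52 (SE 0.27, adjusted p = 0.000591). In *fbxl-5* limma and edgeR called 0 of the 12 and DESeq2 1 lower, the same number as at an unadjusted p below 0.05.

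**Figure D5:**
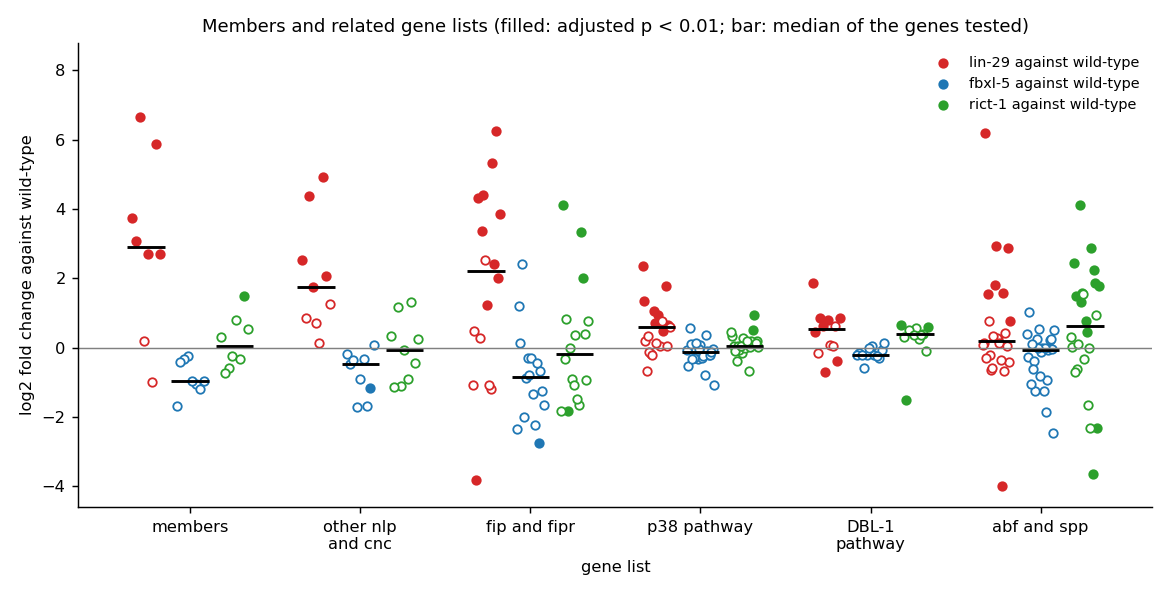
Log2 fold change of every tested gene of 6 lists in *lin-29*, *fbxl-5* and *rict-1* against wild-type. Filled points have an adjusted p below 0.01 and bars are medians. The *lin-29* median was 2.90 for the members, 1.74 for the other *nlp* and *cnc* genes, 2.21 for the *fip* and *fipr* genes, 0.59 for the p38 pathway, 0.55 for the DBL-1 pathway and 0.20 for the *abf* and *spp* genes. Some members and some *nlp*, *cnc*, *fip* and *fipr* genes passed the filter on mean level only through the libraries with the *lin-29* mutation. This choice favours high *lin-29* values, so the medians of the lists cannot be ranked against each other.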

How the data were processed

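Total RNA (Trizol) from whole animals was made into libraries with the TruSeq RNA v2 kit, which does not mark strand, and sequenced as 50-base single-end reads by the authors. Reads were aligned to the WS260 genome, and the submitters' processing notes name STAR, Subread, featureCounts and DESeq2, without versions. The deposited table holds DESeq2-normalized counts, a signal of reads divided by a size factor per library, for 24998 genes in 18 libraries of 6 genotypes. Whole read counts were recovered from it for 100% of values (tolerance 1e-06 of a read). In addition, 7 deposited tables hold the authors' own fold changes and p-values per comparison and were not used. Symbols were found for 92.7% of the gene identifiers. Positions come from the Ensembl annotation of WBcel235.

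Genes with a mean of at least 10 normalized counts (13472) were tested with limma 3.58.1 in R 4.3.3 (mean-variance trend, robust) on log2(normalized count + 1), with all 18 libraries in 1 fit, as contrasts between genotypes and as the interaction of *fbxl-5* with *lin-29* or *rict-1*. The mean was taken over all 18 libraries, so a gene below 10 elsewhere could pass through the *lin-29* mutants alone. P-values are two-sided and adjusted over all genes tested by the Benjamini-Hochberg method, with a threshold of 0.01. The fit was also run on simulated data with independent libraries. These lack the correlation of same-numbered replicates, so the simulation cannot check calls that depend on it. The precision is set by 3 replicates of 13434120 to 29733059 reads. An exact permutation test of 3 against 3 libraries cannot go below p = 0.1, so it was not used for calls. The alternatives were edgeR 4.0.16 and DESeq2 1.42.0 on the recovered reads, TMM normalization, pseudocounts of 0.5 and 5, no filter or a minimum mean of 50, only the groups compared, a threshold of 0.05, the replicate number as a block, and each library left out.

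The members, gene lists and tests were chosen with earlier results of these data known. All 9 members are named. From the further lists, called genes with a mean of at least 50 are named, at most 3 in each direction and comparison, together with any p38 and DBL-1 pathway gene. The labels give each genotype the same replicate numbers. Residuals of same-numbered *rict-1* and *rict-1; fbxl-5* libraries correlated at 0.646, 0.394 and 0.237, which was taken from the data as pairing. For *lin-29; fbxl-5* and wild-type the values were 0.226, 0.100 and 0.149, at the limit, and the block left their count at 6. No other comparison had every value over 0.1.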

Additional observations from a re-analysis of the deposited data

How the results depend on the processing

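The 6 genes higher in *lin-29* were called in each of the alternatives tried and without each single library (*nlp-28* joined them as lower with a threshold of 0.05 and in the paired fit of only the groups compared), and 6 were also called against *fbxl-5* in all of them and against *rict-1* in all but the paired fit of those 2 groups, which gave 5. In *fbxl-5* against wild-type, 0 genes became 4 with DESeq2, 4 with only the groups compared, 5 with that fit and a replicate block, 4 at a threshold of 0.05, and 0 to 1 without single libraries. In *rict-1*, 1 became 2 with DESeq2, 2 with only the groups compared, 3 with that fit and a replicate block, 2 at a threshold of 0.05, 0 without the 3 libraries highest in ribosomal RNA (chosen after seeing the data), and 0 to 1 without single libraries. For *rict-1; fbxl-5* against *rict-1*, 2 became 4 with DESeq2, 1 with edgeR, 1 with a pseudocount of 5, 1 with the replicate block, 6 with the block and only the groups compared, 0 without the 3 libraries highest in ribosomal RNA, and 0 to 2 without single libraries. Against wild-type, *rict-1; fbxl-5* gave 1 to 2 without single libraries, and 3 with only the groups compared, with or without the block, *nlp-28* joining as lower. *lin-29; fbxl-5* against wild-type gave 6 to 7 without single libraries, the seventh being *nlp-27* without its replicate 1. For *lin-29; fbxl-5* against *lin-29*, 0 became 1 with DESeq2. The *lin-29* interaction gave 0 to 1 without single libraries, and the *rict-1* interaction gave 1 with only the groups compared. The replicate block over all 18 libraries changed no other count of members. Where the fits of fewer samples or the other tools gave more calls, the cause was not tested. No share of all genes is given for these alternatives, so their counts cannot be set against a background. Some log2 fold changes that were not called changed sign. Without single libraries, *nlp-27* ran from -0.09 to 0.75 in *lin-29; fbxl-5* against wild-type, from -0.30 to 0.54 against *lin-29* (-0.30 without the 3 libraries), and from -0.07 to 0.19 in *rict-1; fbxl-5* against *rict-1*. *nlp-28* ran from -0.25 to 0.32 in *lin-29* against *fbxl-5*. In *rict-1; fbxl-5* against wild-type, *nlp-30* ran from -0.42 to 0.27 (-0.05 with DESeq2, -0.04 with edgeR), *nlp-31* from -0.25 to 0.12 and *nlp-34* from -0.36 to 0.33 (0.02 with DESeq2, 0.04 with edgeR). *nlp-34* also ran from -0.31 to 0.04 in *lin-29; fbxl-5* against *lin-29*, and from -0.04 to 0.99 in *rict-1; fbxl-5* against *rict-1*. TMM normalization moved the median of all genes by at most 0.052. Depth limits *cnc-1*, *cnc-2* in *rict-1; fbxl-5*, and *nlp-30* and *nlp-34* outside the *lin-29* mutants.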
